A study of Mus musculus with 4 samples.

Results

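The antiviral interferon-stimulated genes are 43 named mouse genes, taken by symbol, that sense viral nucleic acid, relay the type I interferon signal or carry out its antiviral effects. Every probe set (the group of short probes that reads one transcript) whose only gene symbol in the array annotation was one of these names was used. Of the 43 genes, 38 had such a probe set, 57 probe sets in all, and 35 genes were bright enough to be tested, out of 8493 genes tested. Ddx58, Oas1g, Isg15, Ifi44 and Xaf1 had no probe set of a single symbol and were not analysed here. Expression was measured on Affymetrix arrays in livers of adult male C57BL6 mice, killed 6 days after they had been injected with an adenovirus. In 2 arrays, labelled lipin, the virus carried mouse lipin 1beta, an enzyme and transcriptional coactivator of lipid metabolism, and in the other 2 it carried green fluorescent protein (GFP). Both groups therefore received an adenoviral vector, and no liver without one was analysed here. The labels give neither the promoter that drives the insert nor the virus dose, and do not state whether a group's arrays hold RNA of different mice. The p-values therefore cover the variation among these 4 arrays, part of which may be technical.

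Cells recognise viral RNA and DNA with sensors such as the RIG-I-like receptors and Toll-like receptors, and answer by secreting type I interferon. Interferon binds the receptor chains Ifnar1 and Ifnar2, the kinases Jak1 and Tyk2 phosphorylate STAT proteins, and Stat2 and Irf9 enter a complex that binds the interferon-stimulated response element (ISRE) of target promoters. The targets include enzymes that degrade RNA, block translation or hinder viral budding, and in liver both hepatocytes and resident immune cells can express them. Adenoviral vectors are themselves sensed by this system.

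Array quality and the targeted gene limit what follows. Lpin1 had signals of 2260.5 and 6719 in lipin replicates 1 and 2, against 2730 and 1430 in GFP replicates 1 and 2, on one probe set, and 3854 and 11087, against 7082 and 4632, on the other. Only the second array labelled lipin thus exceeded both GFP arrays, and every direction given here rests on the labels. That array is also labelled as polyA RNA and the other 3 as total RNA. The beta-actin 3'/5' signal ratio, which rises as RNA degrades, was 2.85 and 2.86 in lipin replicates 1 and 2, against 1.77 in GFP replicate 1 and 4.22 in GFP replicate 2. GFP replicate 2 also correlated least with the other arrays, at a mean of 0.731 against 0.781 to 0.793. Albumin and the other 6 hepatocyte markers measured were all bright enough to be tested, and their summed signal was 2223861 and 2722320 in lipin replicates 1 and 2, against 1584576 and 3398176 in GFP replicates 1 and 2.

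The promoters of the members were read from RefSeq (GRCm38.p6), as 250 bases before to 50 after each start site, and 36 of the 43 genes matched. The ISRE-like motif searched was GAAANNGAAA on either strand, where N is any base and matches may overlap. It stood in a promoter of 15 of the 36 members (41.7%), compared with 3.99% of all 27025 genes with a promoter. Of the 11 members with a lower signal in both arrays labelled lipin than in both GFP arrays, 5 held it. Of the 22 tested members whose groups overlapped, 17 had a promoter entry and 7 of these held it. The promoters of those 5 are printed here, since these genes separated by group, together with that of Oas1a as a member that holds the motif and overlapped. Trim30a has a further promoter entry, not printed, with a match 2 bases downstream of its start site. Capitals mark the matches, and overlapping matches run together.
Rsad2 (chr12:26456403-26456702, minus strand): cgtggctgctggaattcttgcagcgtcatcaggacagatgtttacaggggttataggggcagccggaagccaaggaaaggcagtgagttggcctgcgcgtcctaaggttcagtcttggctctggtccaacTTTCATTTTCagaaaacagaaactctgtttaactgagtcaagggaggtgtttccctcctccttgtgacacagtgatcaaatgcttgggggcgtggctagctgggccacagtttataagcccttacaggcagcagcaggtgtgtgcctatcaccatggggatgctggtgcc
Ifit1 (chr19:34640639-34640938, plus strand): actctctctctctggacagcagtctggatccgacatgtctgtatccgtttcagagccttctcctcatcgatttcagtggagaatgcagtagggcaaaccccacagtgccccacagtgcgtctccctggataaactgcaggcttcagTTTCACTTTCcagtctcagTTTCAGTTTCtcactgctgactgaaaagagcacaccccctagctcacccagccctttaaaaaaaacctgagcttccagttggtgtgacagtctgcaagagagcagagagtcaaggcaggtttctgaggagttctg
Ifih1 (chr2:62646206-62646505, minus strand): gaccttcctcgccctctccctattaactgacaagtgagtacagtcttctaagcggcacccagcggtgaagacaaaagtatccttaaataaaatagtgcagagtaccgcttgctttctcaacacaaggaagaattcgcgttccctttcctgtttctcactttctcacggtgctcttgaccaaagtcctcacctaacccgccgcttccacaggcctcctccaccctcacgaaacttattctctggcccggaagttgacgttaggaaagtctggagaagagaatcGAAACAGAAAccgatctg
Eif2ak2 (chr17:78882523-78882822, minus strand): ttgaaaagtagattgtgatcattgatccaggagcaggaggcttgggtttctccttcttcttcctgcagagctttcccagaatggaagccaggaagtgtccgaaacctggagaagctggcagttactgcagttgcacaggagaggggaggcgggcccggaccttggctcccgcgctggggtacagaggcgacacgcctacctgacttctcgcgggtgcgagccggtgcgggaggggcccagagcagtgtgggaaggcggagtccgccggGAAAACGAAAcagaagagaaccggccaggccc
Trim30a (chr7:104465144-104465443, minus strand): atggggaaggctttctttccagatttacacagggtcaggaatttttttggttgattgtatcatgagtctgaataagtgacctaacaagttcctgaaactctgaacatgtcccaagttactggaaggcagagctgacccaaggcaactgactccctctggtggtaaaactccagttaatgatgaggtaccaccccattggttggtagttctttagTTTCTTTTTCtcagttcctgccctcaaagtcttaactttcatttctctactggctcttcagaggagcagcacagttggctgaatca
Oas1a (chr5:120907476-120907775, minus strand): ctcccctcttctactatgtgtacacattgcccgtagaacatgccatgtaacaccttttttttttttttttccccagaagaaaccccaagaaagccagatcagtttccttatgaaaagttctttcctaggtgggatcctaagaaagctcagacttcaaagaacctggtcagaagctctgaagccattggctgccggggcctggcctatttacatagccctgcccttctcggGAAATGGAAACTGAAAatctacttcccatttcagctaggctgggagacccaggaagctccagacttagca
The Ifit1 promoter held a pair of matches, starting 104 and 85 bases upstream of the start site, and that of Rsad2 held 1 match at 120 bases. In Oas1a the matches at 20 and 14 bases share a GAAA block, and in Ifih1 and Eif2ak2 the match lay downstream of the start, at 32 and 18 bases. Isg20, Oasl1 and Oasl2 had no match in these windows. A match describes the letters of the window and does not show that a factor binds there.

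No member passed the test of the arrays labelled lipin against GFP, but several antiviral genes, among them Rsad2, Oasl1 and Oasl2, had lower signals in both lipin arrays than in both GFP arrays. With limma and Benjamini-Hochberg adjustment over all 13576 probe sets, 0 of the 35 tested members were higher or lower at an adjusted p under 0.05, as for all probe sets (0% in each direction), and the lowest adjusted p of a member was 0.962. At an unadjusted p under 0.05, 2 members were lower (5.71%), Rsad2 and Isg20, against 1.97% of all genes, and 1 was higher (2.86%), Ifi35, against 2.66% of all genes. Log2 differences lay below 0 in 22 members (62.9%, against 49.9% of all genes) and above 0 in 13. The members' median was -0.16, against 0.0015 over all genes. In 11 of the 35 tested members (31.4%) both lipin arrays lay below both GFP arrays, a separation found in 16% of all genes, and in 2 members (5.71%) both lay above, found in 17.3%. Isg20 and Ifit2 were below the brightness filter in the lipin arrays and entered the test through their GFP signals alone. Their place in these counts follows from the filter, as does that of Isg20 among the members at an unadjusted limma p under 0.05. With no filter, 12 of 38 members (31.6%) lay below, against 15.0% of 12393 genes. A log2 difference of -1 or lower was seen in 5 members (14.3%), against 10.1% of all genes. For a single gene, the smallest two-sided p of an exact permutation test in this design is 0.333. Without GFP replicate 1, the median of the tested members was -0.18, and that of all genes moved to -0.15. Without GFP replicate 2, the members' median was -0.43 and that of all genes 0.0057.

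**Figure D1:**
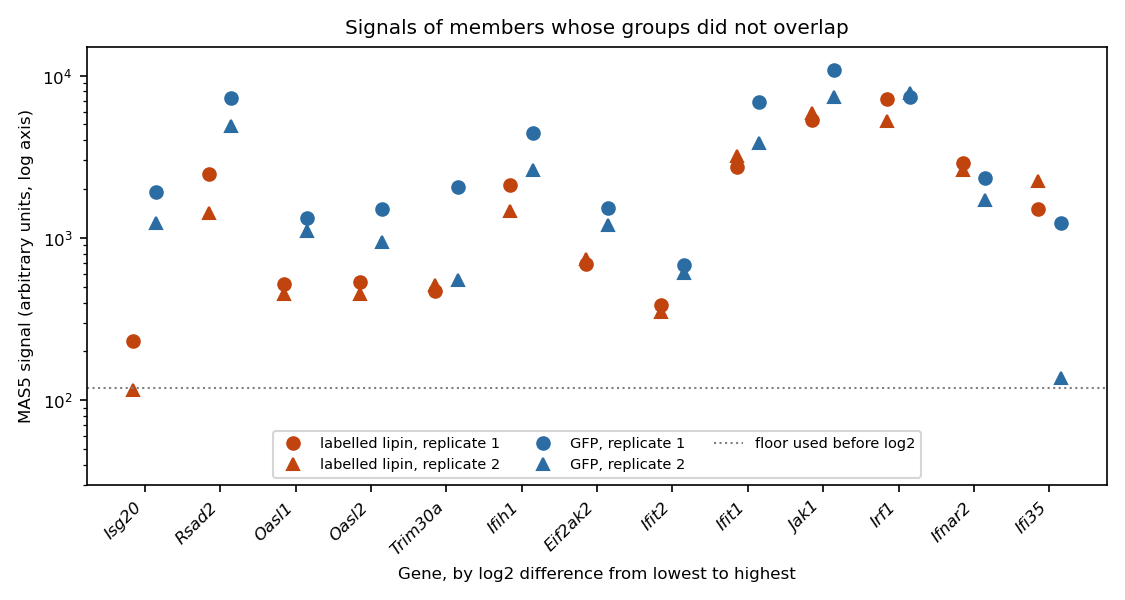
MAS5 signal in arbitrary units (log axis) of the 13 tested members whose groups did not overlap, each with the arrays labelled lipin on the left and the GFP arrays on the right; circles are replicate 1, triangles replicate 2 and the dotted line the floor of 119.5. Isg20 shows the widest gap, at 231 and 116 in the lipin arrays against 1914 and 1244 in GFP, and in Trim30a GFP replicate 2 lies just above the lipin arrays.

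Among the direct antiviral effectors, Rsad2 and Isg20 had the lowest log2 differences. Rsad2 encodes viperin, a radical SAM enzyme that makes a chain-terminating nucleotide. Its representative probe set read 2483 and 1427 in lipin replicates 1 and 2, against 7315 and 4873 in GFP replicates 1 and 2. Both lipin arrays were well below both GFP arrays, 3.17-fold lower on average (log2 difference -1.67 ± 0.43, limma SE, n = 2 per group; adjusted p = 0.962). Without GFP replicate 1 the difference was -1.37. A second Rsad2 probe set gave -1.49 ± 0.57, with 1202 and 861 in lipin against 4752 and 1719 in GFP. The third, with 904 and 540.0 in lipin against 1484 and 323 in GFP, overlapped and gave 0.01 ± 0.95. Isg20, an exonuclease that degrades viral RNA, read 231 and 116 in the lipin arrays, against 1914 and 1244 in GFP. Its log2 difference was -3.21 ± 1.13 (limma adjusted p = 0.962). The second lipin signal lay just under the floor of 119.5 to which low values were raised, so the size depends on the floor. It was -3.24 with the floor at the 10th percentile of signals and -2.66 with the floor at the 30th. Isg20 passed the filter on brightness through its GFP signals, and without GFP replicate 1 it no longer passed it.

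Eif2ak2 encodes PKR, the kinase that halts translation on double-stranded RNA. Its signals were 693 and 739 in lipin, against 1528 and 1197 in GFP, without overlap, and the log2 difference was -0.92 ± 0.67. The dimmer probe set was low in lipin replicate 2 alone, with 1113 and 38.0 in lipin against 1057 and 989 in GFP. The tetherin gene Bst2, which holds budding virus at the cell surface, read 5778 and 3523 in lipin against 7854 and 1391 in GFP. Its GFP arrays lay on either side of the lipin arrays, and the log2 difference of 0.45 ± 0.61 became 1.70 without GFP replicate 1 and -0.80 without GFP replicate 2. Ifitm3, a membrane protein that blocks virus entry, varied little, with 93836 and 77714 in lipin and 83979 and 78194.5 in GFP (0.08 ± 0.38). Mx1, a dynamin-like GTPase, read 427 and 845 in lipin and 521 and 907 in GFP, a log2 difference of -0.20 ± 0.94 with overlapping groups. Mx2 and Adar, an RNA-editing enzyme, were too dim to test. Adar read 232 and 74.7 in lipin against 603 and 959 in GFP, with the second lipin signal under the floor, and Mx2 stayed between 114 and 196 on every array.

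**Figure D2:**
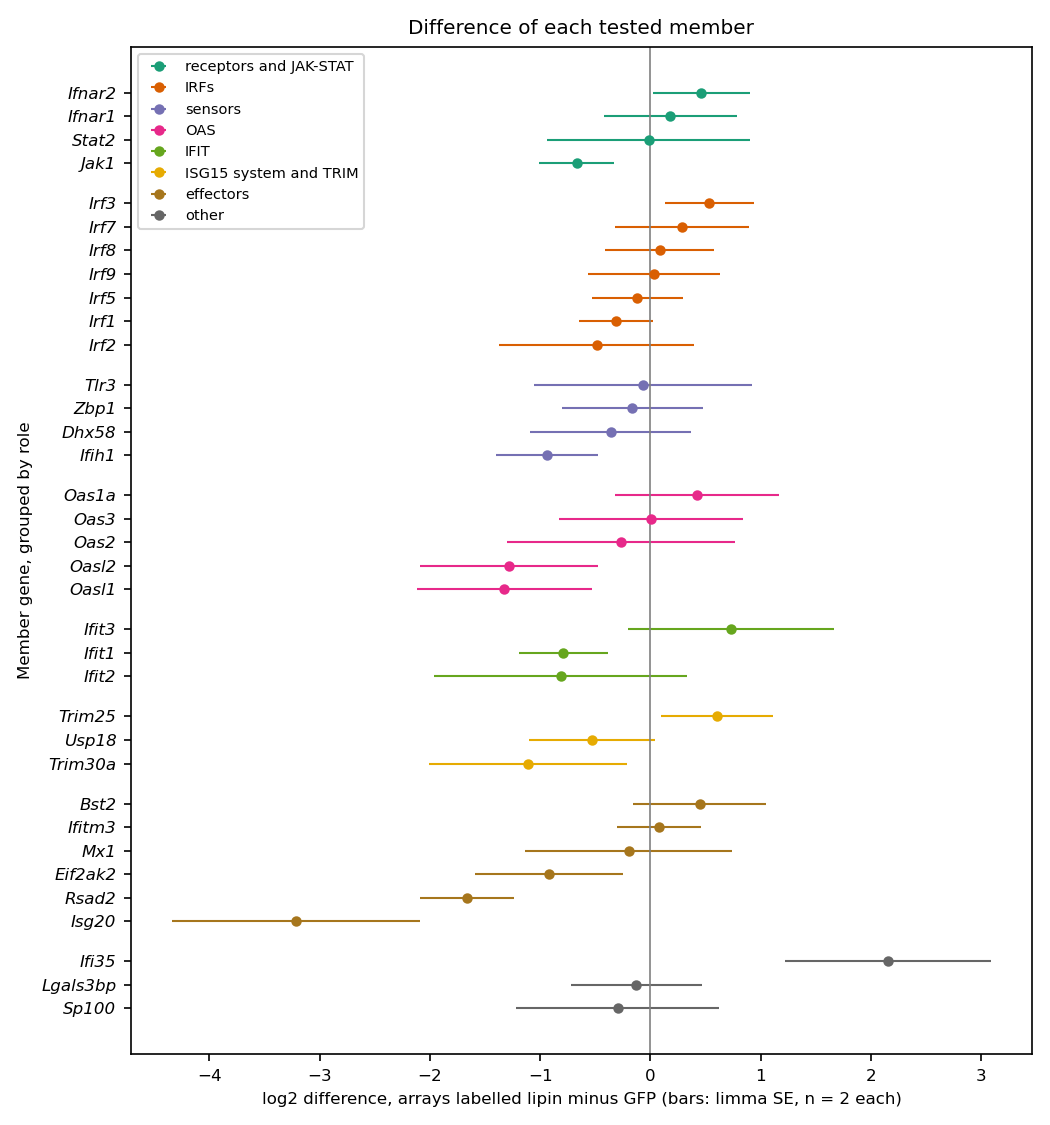
Log2 difference (arrays labelled lipin minus GFP, horizontal axis) of the 35 tested members, grouped by role, with limma standard errors from 2 arrays per group. Points run from -3.21 for Isg20 to 2.15 for Ifi35, and Rsad2, at -1.67, has the shortest bar relative to its size.

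In the 2',5'-oligoadenylate synthetase family, the OAS-like genes Oasl1 and Oasl2 separated by group, with lower lipin signals. They were 2 of the 5 genes tested (40%, against 16% of all genes). Whether they differ from the other members in response was not tested. OAS enzymes make oligoadenylates that activate RNase L, and the OAS-like proteins carry ubiquitin-like domains. Oasl1 read 519 and 455 in lipin, against 1334 and 1109 in GFP (log2 difference -1.32 ± 0.79). Oasl2 read 536 and 449, against 1509 and 944 (-1.28 ± 0.81). In both genes the lipin arrays lay close together and below both GFP arrays, 2.50-fold and 2.43-fold lower, and the difference stayed at -1.19 and -0.94 without GFP replicate 1. Oas1a, Oas2 and Oas3 did not separate by group. Oas1a read 2193 and 1514 in lipin, between its GFP signals of 3652 and 507 (0.42 ± 0.74, and -1.003 without GFP replicate 2). Oas2 had 373 and 785 in lipin against 370 and 1144 in GFP, and Oas3 had 792 and 682 against 543 and 991, with log2 differences of -0.27 ± 1.03 and 0.0028 ± 0.84. Near-identical copies of Oas1 genes exist in mouse, so the Oas1a probe set may read more than 1 of them.

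The IFIT proteins bind viral RNA and block its translation. Ifit1 read 2753 and 3179 in lipin, against 6857 and 3819 in GFP (log2 difference -0.79 ± 0.40). The groups did not overlap, but the gap to GFP replicate 2 was small, at -0.37 without GFP replicate 1. Ifit2 had tight groups, with 385 and 349 in lipin against 685 and 606 in GFP (-0.81 ± 1.15). These groups did not overlap, and Ifit2 passed the brightness filter through its GFP signals alone. Ifit3 overlapped, at 631 and 1561 in lipin and 1337 and 267 in GFP (0.73 ± 0.93), and turned to -0.43 without GFP replicate 2.

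In the ISG15 system and the TRIM ligases, 1 of 3 tested genes separated, with lower lipin signals (33.3%, against 16% of all genes). Usp18 removes ISG15 from proteins and restrains signalling from the interferon receptor. Its signals were 1901 and 891 in lipin and 2374 and 1485 in GFP, a log2 difference of -0.53 ± 0.57 with overlap. Trim30a read 472 and 514 in lipin against 2046 and 552 in GFP (-1.11 ± 0.90). That difference rests on GFP replicate 1 and was -0.16 without it. Trim25, the ubiquitin ligase that activates RIG-I, read 3861 and 3286 in lipin and 4142 and 1325 in GFP (0.60 ± 0.51). Its other probe sets gave 0.69 and 0.29, and only GFP replicate 2 was low on the brightest one.

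Of the 4 tested nucleic acid sensors, 1 separated with lower lipin signals (25%, against 16% of all genes), namely Ifih1. It encodes MDA5, a receptor for long double-stranded RNA, and read 2127 and 1472 in lipin, against 4403 and 2615 in GFP (log2 difference -0.94 ± 0.46, and -0.56 without GFP replicate 1). Dhx58, or LGP2, a cofactor of MDA5, read 668 and 932 in lipin and 782 and 1309 in GFP (-0.36 ± 0.73), with a second probe set at 0.22 ± 1.29. Zbp1, a sensor of Z-form nucleic acids, read 2165 and 809 in lipin and 2184 and 1007 in GFP, so replicate 1 was the higher in both groups (-0.16 ± 0.64). Tlr3, the endosomal receptor for double-stranded RNA, read 653 and 516 in lipin, between its GFP signals of 869 and 424 (-0.06 ± 0.99). Ifi204 lay under the floor on all 4 arrays.

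The interferon regulatory factors had log2 differences on both sides of 0, from -0.49 for Irf2 to 0.54 for Irf3, with a median of 0.03 over 7 genes. By the brightest probe set of each gene, only Irf1, an activator that interferon induces, had no overlap (14.3%, against 16% of all genes below). It read 7166 and 5287 in lipin against 7408 and 7865 in GFP. Its difference of -0.31 ± 0.34 was -0.09 without lipin replicate 2. Irf7, the master regulator of type I interferon genes, read 2097 and 1488 in lipin, between 2620.0 and 804 in GFP (0.28 ± 0.61), and its difference ran from -0.57 to 1.14 when each array was left out in turn. Irf8, a factor of myeloid cells, had a log2 difference of 0.09 ± 0.49 by the brighter probe set. The dimmer one gave -1.17 ± 0.66, and there the lipin arrays read 593 and 867 against 2098 and 1247 in GFP, without overlap. Irf9, the DNA-binding part of the STAT complex, read 2412 and 949.7 in lipin and 1863 and 1172 in GFP (0.03 ± 0.60). Irf3, which acts directly below the sensors, gave 0.54 ± 0.40 on the only one of its 4 probe sets that was bright enough, with 4354 and 5595 in lipin and 2523 and 4590.5 in GFP. Irf2 and Irf5 gave -0.49 ± 0.89 and -0.12 ± 0.41.

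Receptor and kinase transcripts gave mixed values. Ifnar2 read 2905 and 2620 in lipin, above 2341 and 1711 in GFP (log2 difference 0.46 ± 0.44). Its second probe set, too dim to test, ran the other way, with 166 and 81.8 in lipin against 599.6 and 847 in GFP. Ifnar1 read 1138 and 1430 in lipin and 961 and 1317 in GFP (0.18 ± 0.60). Jak1 read 5316 and 5883 in lipin against 10776 and 7332 in GFP on its brightest probe set (-0.67 ± 0.34), while another tested one gave 0.40 ± 0.40, with 4032 and 3438 in lipin and 3342 and 2376 in GFP. The Jak1 probe sets thus disagreed in direction. Stat2 gave -0.02 ± 0.92, a sign that turned with the scaling of the arrays.

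Among the remaining members, the values of Ifi35 and Lgals3bp depended on single GFP arrays. Ifi35, an interferon-induced leucine zipper protein, read 1515 and 2233 in lipin, against 1235 and 138 in GFP (log2 difference 2.15 ± 0.94; limma adjusted p = 0.962), and without GFP replicate 2 it stood at 0.57. Lgals3bp, a secreted glycoprotein, read 7338 and 3104 in lipin and 11626 and 2340.0 in GFP (-0.13 ± 0.60), or 1.03 without GFP replicate 1 and -1.28 without GFP replicate 2. Sp100, a nuclear body protein, gave -0.30 ± 0.92 with overlapping groups.

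In the members, the GFP arrays often differed more from each other than the groups did. In 25 of the 35 tested members the gap between the GFP arrays exceeded the difference between the group means. The same share over all genes was not computed, so whether this count is particular to the members is unknown. The median absolute gap between the GFP arrays was 0.80 log2 units in members, against 0.68 in all genes. The members were highest in GFP replicate 1 in 20 of 35 cases (57.1%), compared with 19.7% of all genes, and GFP replicate 1 exceeded GFP replicate 2 in 71.4% of members against 44.6% of all genes. Their median deviation from the mean of the 4 arrays was -0.08 and -0.13 on the log2 scale in lipin replicates 1 and 2, against 0.52 and 0.06 in GFP replicates 1 and 2. A set of 7 members (20%, against 8.15% of all genes) was highest in GFP replicate 1 and lowest in GFP replicate 2, with both lipin arrays between, among them Bst2, Oas1a, Irf7 and Lgals3bp. GFP replicate 2 also had the highest actin 3'/5' ratio (4.22), and the part of RNA quality in these values was not tested. With each array left out in turn, 13 members kept the sign of their difference in all 4 fits, 10 lower and 3 higher, and 21 changed it. Isg20 kept it in the 3 fits in which it was tested. A gene whose groups do not overlap must keep its sign here, so these counts mostly restate the separation. Of the members that kept the sign, only Irf3 had overlapping groups. The share of all genes that kept it was not computed.

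**Figure D3:**
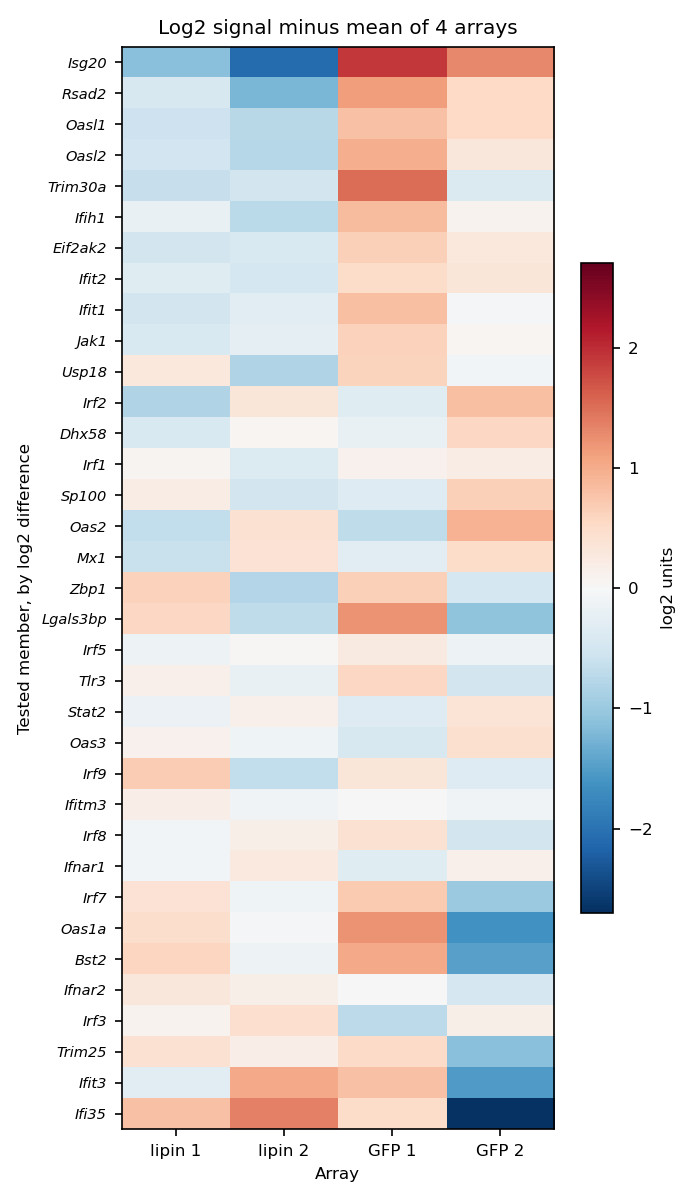
Log2 signal of the 35 tested members (rows, by log2 difference) minus the mean of the 4 arrays, for the arrays labelled lipin and the GFP arrays (columns). GFP replicate 1 has a median of 0.52 and is the highest array in 20 members, while GFP replicate 2 is high for Isg20 and Rsad2 and low for Bst2, Oas1a and Ifi35.

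The other genes of the interferon pathway were read from lists of ligands, signalling proteins, interferon-inducible GTPases and class I antigen presentation. None of their genes passed the limma test. The interferon-inducible GTPases, which attack the vacuoles of intracellular pathogens, had a median log2 difference of -0.68 over 8 tested genes, 7 of them below 0. GFP replicate 1 was the highest array in 7 of the 8. Iigp1, for example, read 84511 and 43029 in lipin, against 246819 and 52832 in GFP, with overlap. The median of the list was 0.27 once GFP replicate 1 was left out and 0.0077 once lipin replicate 2 was, but -1.64 once GFP replicate 2 was and -1.02 once lipin replicate 1 was. Only Ifi47 separated, with lower lipin signals (12.5% of the list, against 16% of all genes). Its signals were 3690 and 3565 in lipin against 11640 and 4432 in GFP (-0.99 ± 0.43, limma adjusted p = 0.962).

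Class I presentation genes, which load peptides for T cells, had a median of 0.06 over 10 genes, from -0.82 for Tap2 to 1.26 for Psmb9. Of these genes 0 separated in either direction, against 16% of all genes below and 17.3% above. With each array left out in turn, that median lay between -0.48 and 0.49, at its lowest when GFP replicate 2 was the one omitted. Replicate 1 exceeded replicate 2 in 9 of these 10 genes among the lipin arrays and likewise in 9 among the GFP arrays. The signalling list had a median of -0.12 over 17 genes. Tmem173, which encodes STING, an adaptor of DNA sensing, read 955 and 2170 in lipin, above 468 and 394 in GFP (1.74 ± 0.81), and Socs1, a feedback inhibitor, read 780 and 48.6 in lipin and 486 and 2155 in GFP (-1.75 ± 1.20). Socs1 passed the brightness filter through its GFP signals alone. Of the 15 interferons and their other receptor chains, 12 had a probe set of a single symbol and 7 were bright enough to test. Their median was -0.52 and ran from -0.79 to 0.25 when each array was left out in turn. Ifnb1, the first interferon made after sensing, read 101 and 603 in lipin and 583 and 1066 in GFP (-1.55 ± 1.29), with overlap, and Ifna2 read 1049 and 1179 in lipin against 88.6 and 316 in GFP (2.52 ± 1.22). Ifnb1 passed the brightness filter through its GFP signals alone and Ifna2 through its lipin signals alone.

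Markers of lymphocytes were read beside the members, and none passed the limma test. Of the 10 T and NK cell markers measured, 5 had log2 differences below 0 and 4 above 0 with no filter, with a median of -0.15. The 5 that were bright enough to test all lay below 0, but Cd8a, Gzma and Gzmb passed the brightness filter through their GFP signals alone. Gzma, a granzyme of cytotoxic cells, read 560 and 64.6 in lipin against 893 and 990 in GFP, while Cd3d, Cd3e, Cd3g, Cd8b1 and Cd4 were too dim to test and 1 of the markers lay under the floor on every array. The summed signal of the 10 markers was 4555 and 4409 in lipin, against 5540 and 6090 in GFP. The 3 B cell markers measured summed to 1392 and 1158 in lipin against 2107 and 2471 in GFP. Cd79a, at -2.06 ± 1.11, passed the brightness filter through its GFP signals alone, and Ms4a1 and Cd79b had log2 differences of -0.45 ± 0.88 and -0.05 ± 1.26. Macrophage markers did not separate as a sum, with 55390 and 36357 in lipin and 57165 and 31216 in GFP over 11 genes. The neutrophil sum was 3943 and 2574 in lipin and 5962 and 2846 in GFP, and the plasmacytoid dendritic cell sum 876 and 2097 against 647 and 3126. Endothelial markers summed to 17383 and 23452 in lipin and 16056 and 22417 in GFP. In whole liver, fewer cells of a type and less RNA per cell cannot be told apart, and the part of these cells in the members' values was not tested.

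**Figure D4:**
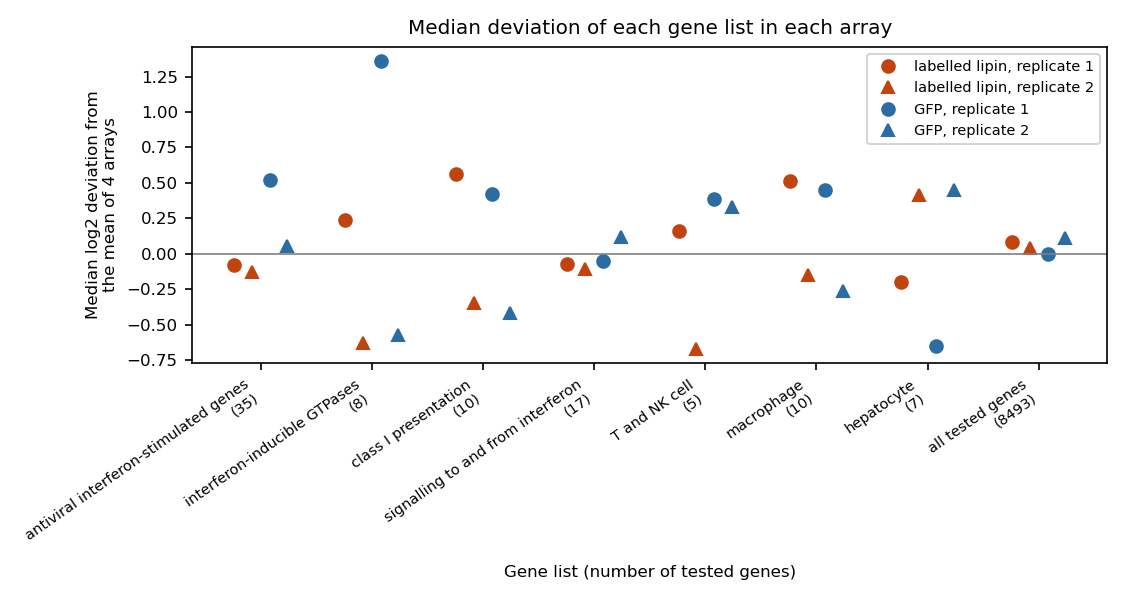
Median log2 deviation from the mean of the 4 arrays (vertical axis) of each gene list, with the arrays labelled lipin on the left and the GFP arrays on the right in each column and the number of tested genes in parentheses. GFP replicate 1 stands at 0.52 for the antiviral genes and 1.36 for the GTPases. Class I genes stand higher in replicate 1 than in replicate 2 in both groups. So do the GTPases and the macrophage markers, while the hepatocyte markers stand lower in replicate 1.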

How the data were processed

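The deposited values are intensity values on a linear scale, 1 signal per probe set and array, made by the authors with the MAS5 algorithm, per the submitters' processing notes. The software version and scaling target were not given in the sources used here. MAS5 subtracts mismatch signal, so dim probe sets are noisy. After removal of 64 control probe sets, a floor of 119.5, the 20th percentile, was set under the signals before log2. The filter kept 13576 of 22626 probe sets, those whose mean reached the 40th percentile (a signal of 373), and these were fitted with limma 3.58.1 in R 4.3.3, with an intensity trend, two-sided, and Benjamini-Hochberg adjustment over all of them at 0.05. Raising low signals understates differences of dim genes. No detection calls were used, so signal over background is unknown, and the number of arrays limits the precision.

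The brightest tested probe set stood for each gene. Names came from the platform annotation, which gave 20380 probe sets a single symbol and 691 more than 1, with 1555 unlisted. By identifier, 20351 matched RefSeq. Groups came from the sample titles. Printed with all signals are the up to 6 members per direction with the smallest p, the brightest of each role and those whose probe sets differ in sign; other members were added after their values were seen. From each further list up to 4 genes by smallest p could be named. The members and lists were chosen with earlier results of these data known. The fit was tried on simulated data whose changes were larger than the differences of nearly all members. That trial cannot show how well the fit finds differences of their size. Alternatives covered scaling, floor, filter, trend, a replicate block, probe sets per gene and leaving out each array. Same-numbered arrays did not deviate together across probe sets as a whole (r = 0.03), so the numbers were not taken as pairs. Single lists, such as the class I genes and the hepatocyte and macrophage markers, did shift with the replicate number in both groups.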

Additional observations from a re-analysis of the deposited data

How the results depend on the processing

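Of 14 alternatives, none ended a call, since 0 members and 0 probe sets passed at the start. With the replicate number as a block, 34 probe sets were higher and 18 lower and 1 member was called, Rsad2 (limma adjusted p = 0.0179). That fit leaves a single residual degree of freedom and the numbers are not known to pair the arrays. Leaving out each array in turn gave 0 to 8 probe sets higher and 0 to 6 lower. The members' median ran from -0.43 (without GFP replicate 2) to -0.064 (without lipin replicate 2), that of the interferons and their other receptor chains from -0.79 to 0.25, and that of the signalling list from -0.19 to -0.0056. In these fits 16 to 21 members lay below the arrays of the other group (44.4% to 60%, against 29.8% to 40.8% of all genes) and 4 to 10 above (11.1% to 29.4%, against 29.9% to 36.4%). Without GFP replicate 1 it was 50% of members below against 40.8% of all genes. These are fits in which the group left with 1 array separates more easily and is assumed to vary like the other. Without probe sets ending in _x_at, _s_at or _a_at, 22 members were tested, 7 of them below and 1 above; the smaller number of members gives the smaller counts. Quantile normalization left 9 members below (25.7%, against 16.3% of all genes) and median centring 8 (22.9%, against 15.4%). The sign turned for Stat2 (0.019 with quantile normalization, 0.01 with median centring) and Ifitm3 (-0.00056 with quantile normalization), and the cause was not tested. It also turned for Irf8, at -0.54 with the mean of its tested probe sets, which gave 0.09 and -1.17 singly. With each array left out in turn, 21 members changed sign, with log2 differences from the lowest to the highest of Ifnar1 -0.046 to 0.41, Stat2 -0.37 to 0.34, Irf2 -1.06 to 0.082, Irf5 -0.31 to 0.067, Irf7 -0.57 to 1.14, Irf8 -0.37 to 0.54, Irf9 -0.64 to 0.71, Dhx58 -0.73 to 0.013, Tlr3 -0.58 to 0.45, Zbp1 -0.87 to 0.55, Oas1a -1.003 to 1.84, Oas2 -1.08 to 0.55, Oas3 -0.43 to 0.44, Ifit3 -0.43 to 1.89, Usp18 -1.08 to 0.018, Trim25 -0.22 to 1.43, Mx1 -0.69 to 0.30, Bst2 -0.80 to 1.70, Ifitm3 -0.060 to 0.21, Sp100 -0.79 to 0.20, and Lgals3bp -1.28 to 1.03. With 2 arrays per group, dim probe sets near the floor are the least certain.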
